A study of Homo sapiens with 4 samples.

Results

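DNA replication begins at origins, where the origin recognition complex (ORC) marks the site at which the MCM helicase is loaded. The DBF4-dependent kinase then lets CDC45 and the GINS complex join the helicase, which unwinds DNA at the fork. Polymerase alpha-primase lays down primers, polymerases epsilon and delta extend them with the help of the PCNA clamp, and nucleases and a ligase join the lagging-strand fragments. Many of these genes are known to be transcribed under E2F control as cells enter S phase.

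The transcripts described here were the 44 genes for this origin and fork machinery, chosen by name and with the MCM subunits and licensing factors left out. All 44 were present in the table of 18567 genes, and all 44 reached at least 1 TPM in 2 of the 4 samples, so that all were among the 16817 genes tested. They were sorted into 10 complexes or steps. The levels are given as TPM, a length-scaled share of the transcripts in a sample, which corrects the signal of a gene for transcript length and sample total and so allows levels to be compared between genes.

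The samples came from Kasumi-1, an AML cell line that carries the RUNX1::RUNX1T1 fusion. The 2 samples of the control group (NC) bear the label of no treatment and no shRNA, although the study's methods describe a control hairpin. The 2 samples of the other group (sh-ANP32B) carry knockdown of ANP32B, a nuclear phosphoprotein, which the methods describe as stable after lentiviral infection and puromycin selection. If NC had neither, the effects of infection and selection cannot be told apart from those of the knockdown. The sources used here do not give the hairpin of each sample, nor whether samples came from separate infections, so p-values measure the spread between these samples, which may be technical.

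Expression of ANP32B was 384 and 392 TPM in NC against 51.8 and 41.2 in sh-ANP32B, a level of 11.99% of NC. RUNX1, RUNX1T1 and CD33 were present in all 4 samples, at 15.6 TPM or more, whereas KIT lay between 1.55 and 3.41 TPM, and CD34 and MPO were not analysed here. RUNX1T1 was the myeloid marker with the largest fold change, at 17.6 and 15.6 TPM in NC against 31.2 and 26.8 in sh-ANP32B (limma adjusted p 0.0632). Of the T and B cell markers, CD79A lay between 0 and 2.17 TPM, and CD3D, CD3E and MS4A1 were not analysed here, nor were the erythroid, stromal and epithelial markers. Mitochondrial transcripts took 12.95% and 13.1% of the total in NC against 11.4% and 8.43% in sh-ANP32B. Their part in the results below was not tested, beyond the fit without mitochondrial genes.

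Most of the replication genes had lower values in sh-ANP32B than in NC. The summed TPM of the 44 genes was 3204 and 3193 in NC and 2218 and 2073 in sh-ANP32B, or 67.1% of the NC mean. Of the 44 genes, 11 fell and 1 rose with a limma adjusted p under 0.05, while 32 did not pass the test. Among all genes tested 1.18% fell and 2.14% rose, so that the 25.0% of replication genes that fell was above the share of all genes. Both sh-ANP32B samples lay below both NC samples in 40 of the 44 genes, against 21.4% of all genes, and above both in 2, against 33.2%. The log2 fold change, or log2 ratio to NC, is the difference of the group means of log2(TPM + 1), and SE is its standard error. Its median over the 44 was -0.64 and that of all genes tested was 0.0827. With 2 samples a group, the exact permutation test of a single gene cannot give a two-sided p under 0.333, and all p-values rest on the variance that limma shares across genes.

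The calls lie close to the threshold. The 12 called genes had limma adjusted p between 0.0299 and 0.049, and 14 more lay between 0.05 and 0.1. Without the abundance trend in the variance 0 of the 44 passed. In that fit 33 had an unadjusted limma p under 0.05, against 3701 of all 16817 genes. After correction for GC content 33 fell and 2 rose, against 1024 and 1754 of all 15427 genes in that fit. Few of the 44 stayed called lower when an NC replicate was left out, and most were called when an sh-ANP32B replicate was. Over all genes the number of calls fell and rose likewise. The median log2 fold change of the 44 was -0.63 without NC replicate 1 and -0.64 without NC replicate 2. It was -0.69 without sh-ANP32B replicate 1 and -0.53 without sh-ANP32B replicate 2. Without an NC sample the spread is measured between the sh-ANP32B replicates alone. In these bulk samples, fewer cells in S phase and less replication mRNA per cell cannot be told apart.

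**Figure D1:**
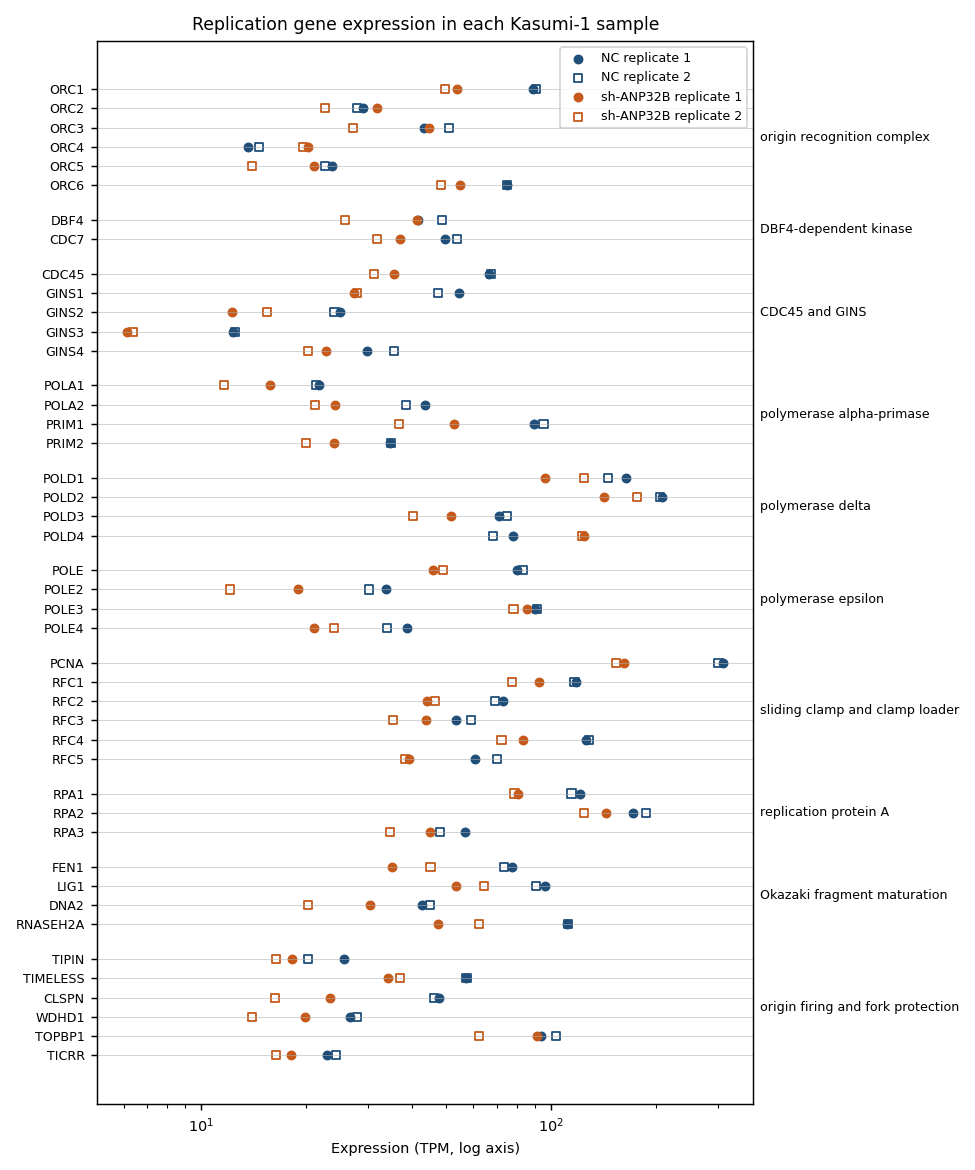
Expression in TPM (log axis) of the 44 replication genes in each sample, grouped by complex or step, with circles for replicate 1 and squares for replicate 2, NC in blue and sh-ANP32B in orange. In 40 genes both orange symbols lie to the left of both blue ones, and in ORC4 and POLD4 they lie to the right.

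CLSPN showed the largest fall of the 44 genes. It encodes claspin, the adaptor through which the kinase ATR activates CHK1 at stalled forks, and which also helps forks keep their speed. The gene (ENSG00000092853, minus strand of chromosome 1 from 35720218 to 35769978, hg38) had 47.8 and 46.2 TPM in NC against 23.3 and 16.2 in sh-ANP32B. The NC samples were nearly level, and the sh-ANP32B samples differed from each other but were both well below them. Group means were 47.0 ± 1.15 and 19.8 ± 5.01 TPM (SD, n = 2 each), giving a log2 fold change of -1.23 with SE 0.2005 (limma adjusted p 0.0406).

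The other genes of origin firing and fork protection had smaller changes and did not pass the test. TIMELESS and TIPIN form the complex that ties the helicase to the polymerases. TIMELESS had 57.1 and 57.4 TPM in NC against 34.2 and 37.0 in sh-ANP32B (log2 fold change -0.67, limma adjusted p 0.0561), and TIPIN had a log2 ratio to NC of -0.38 (limma adjusted p 0.278). WDHD1, which links polymerase alpha to the helicase, had a log2 ratio to NC of -0.68 (limma adjusted p 0.115). TOPBP1 and TICRR, which bring GINS and CDC45 to the origin, had values of -0.38 and -0.43 (limma adjusted p 0.293 and 0.180). TOPBP1 had 91.1 TPM in sh-ANP32B replicate 1, close to the 94.0 TPM of NC replicate 1, and 62.3 TPM in replicate 2. In all 6 genes of this step the groups did not overlap, with the sh-ANP32B samples lower. The same held for 40 of the 44 genes and for 21.4% of all genes.

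At the origin itself, ORC1 fell and the other 5 ORC subunits did not pass the test. ORC1 is the subunit whose level is known to follow the cell cycle, whereas ORC2 to ORC5 form a stable core. It had 89.1 and 90.8 TPM in NC against 54.1 and 49.7 in sh-ANP32B, and its log2 fold change came to -0.78 with SE 0.134 (limma adjusted p 0.0431). ORC6 stood at 75.15 and 74.97 TPM in NC against 54.9 and 48.4 in sh-ANP32B (log2 fold change -0.53, limma adjusted p 0.0857). These were the most abundant ORC transcripts in NC, and in neither did the groups overlap.

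None of the 4 core ORC subunits passed the test. ORC2 ranged from 22.7 to 31.7 TPM in sh-ANP32B, a span that held both NC values of 29.1 and 28.0 TPM, with a log2 ratio to NC of -0.08 (limma adjusted p 0.841). ORC3 also overlapped between the groups, and its log2 fold change of -0.42 (limma adjusted p 0.347) came with 44.7 and 27.1 TPM in the sh-ANP32B replicates. ORC5 had a log2 ratio to NC of -0.41 (limma adjusted p 0.312). ORC4 had 13.6 and 14.6 TPM in NC against 20.25 and 19.5 in sh-ANP32B, a log2 ratio to NC of 0.47 with SE 0.169 (limma adjusted p 0.162) and the only positive value among the 44 genes besides that of POLD4. Its limma adjusted p was 0.0498 after GC correction and 0.0612 with GC correction and the replicate number as a block. In the other settings with all 4 samples it was 0.156 or more. The share of ORC4 in the summed ORC transcripts was 4.96% and 5.19% in NC and 8.93% and 10.8% in sh-ANP32B, while that of ORC1 was 32.5% and 32.2% against 23.9% and 27.4%.

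CDC45 and the 4 GINS subunits bind the MCM ring to form the active replicative helicase, called CMG. Of these 5 genes 2 fell and 3 did not pass the test. In all 5 both sh-ANP32B samples were below both NC samples, as in 40 of the 44 genes and 21.4% of all genes. CDC45 (ENSG00000093009, chromosome 22) had 66.3 and 67.6 TPM in NC against 35.5 and 31.2 in sh-ANP32B, with means of 66.96 ± 0.867 and 33.35 ± 3.055 TPM (SD, n = 2 each). Its log2 ratio to NC was -0.99 with SE 0.145 (limma adjusted p 0.0351), and the groups were wide apart relative to their replicates. GINS1 had 54.6 and 47.5 TPM in NC against 27.4 and 27.8 in sh-ANP32B, and its log2 fold change came to -0.86 with SE 0.151 (limma adjusted p 0.0440).

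GINS3 was the least abundant of the 44 transcripts, at 12.4 and 12.5 TPM in NC against 6.14 and 6.375 in sh-ANP32B. Its replicates were tight in both groups, and the log2 fold change of -0.89 had a limma adjusted p of 0.0594. GINS2 and GINS4 had log2 fold changes of -0.79 and -0.58 (limma adjusted p 0.0694 and 0.110). The summed TPM of the 5 genes was 188 and 187 in NC against 104 and 101 in sh-ANP32B, or 54.7% of the NC mean. The upstream kinase genes CDC7 and DBF4 had log2 fold changes of -0.58 and -0.45 (limma adjusted p 0.0891 and 0.297). DBF4 had 41.3 TPM in sh-ANP32B replicate 1 and 41.8 TPM in NC replicate 1, so that its groups were only just apart.

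Primer synthesis showed some of the largest falls. Polymerase alpha-primase has 4 subunits, of which PRIM1 is the catalytic primase, PRIM2 its large subunit, POLA1 the DNA polymerase and POLA2 the accessory B subunit. PRIM1 (ENSG00000198056, minus strand of chromosome 12 from 56730438 to 56752374) had 89.6 and 95.3 TPM in NC against 52.8 and 36.7 in sh-ANP32B. Group means were 92.4 ± 4.06 and 44.75 ± 11.3 TPM (SD, n = 2 each), and the log2 ratio to NC was -1.05 with SE 0.193 (limma adjusted p 0.0448). Annotated exons of PRIM1 share 139 bases with NACA on the same strand and 132 with HSD17B6 on the other. NACA had 950.5 and 845.3 TPM in NC against 851.2 and 665.2 in sh-ANP32B (log2 fold change -0.25). The log2 fold change of HSD17B6 was -0.83. How the authors assigned reads there is not given in the sources used here.

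POLA2 also fell, from 43.7 and 38.4 TPM in NC to 24.1 and 21.1 TPM in sh-ANP32B (log2 fold change -0.83, SE 0.163, limma adjusted p 0.0490). PRIM2 and POLA1 had log2 fold changes of -0.65 and -0.63 (limma adjusted p 0.0798 and 0.123). PRIM1 was the most abundant of the 4 in every sample and POLA1 the least abundant, while POLA2 and PRIM2 were close in sh-ANP32B replicate 1 (24.1 and 23.9 TPM).

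**Figure D2:**
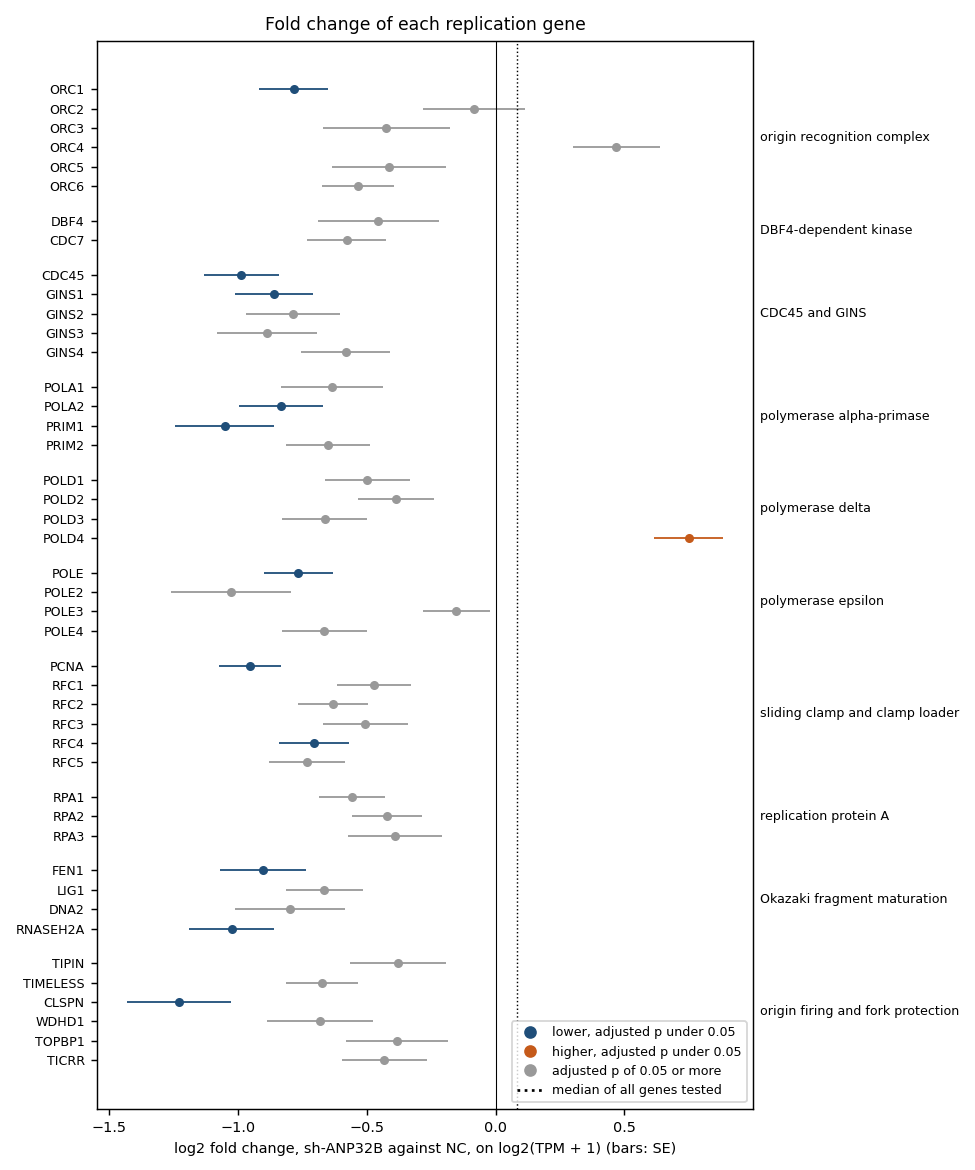
Log2 fold change of sh-ANP32B against NC on the log2(TPM + 1) scale for the 44 replication genes, with SE bars, blue where a gene was called lower, orange where called higher and grey where the adjusted p was 0.05 or more. The dotted line is the median of all genes tested, 0.0827, and 42 of the 44 points lie below 0.

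The leading-strand polymerase had a called catalytic subunit and an accessory subunit that barely differed. POLE, the catalytic subunit of polymerase epsilon, had 79.95 and 83.1 TPM in NC against 46.0 and 49.15 in sh-ANP32B, and its log2 fold change came to -0.77 with SE 0.134 (limma adjusted p 0.0440). POLE2, the second subunit, had the larger log2 fold change of -1.03, but 18.9 and 12.1 TPM in the sh-ANP32B replicates and a limma adjusted p of 0.0643. POLE4 had a log2 ratio to NC of -0.67 (limma adjusted p 0.0763). POLE3, a histone-fold subunit that pairs with POLE4 and is also found in a chromatin remodelling complex, had 90.3 and 91.6 TPM in NC against 85.3 and 78.2 in sh-ANP32B (log2 fold change -0.15, limma adjusted p 0.528). POLE3 made up 37.2% and 38.4% of the summed polymerase epsilon transcripts in NC and 49.8% and 47.8% in sh-ANP32B.

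Polymerase delta, which copies the lagging strand, held the only member that rose. POLD4, its smallest subunit, is known to be degraded after DNA damage. The gene (ENSG00000175482, minus strand of chromosome 11 from 67350772 to 67356972) had 78.1 and 68.5 TPM in NC against 124.7 and 122.5 in sh-ANP32B. Group means were 73.3 ± 6.77 and 123.6 ± 1.57 TPM (SD, n = 2 each), giving a log2 fold change of 0.75 with SE 0.135 (limma adjusted p 0.0441). The direction was the same in all 15 alternative settings, of which the filters, the fit without the trend and the replicate block cannot change it. The call was lost after median-of-ratios, upper-quartile and quantile scaling (limma adjusted p 0.0555, 0.0522 and 0.0542) and without the abundance trend (0.126). The call was also lost without NC replicate 1 or 2, where the log2 fold change was 0.84 and 0.66. A same-strand locus, ENSG00000256514, shares 650 annotated exon bases with POLD4. It had 2.85 and 0.131 TPM in NC against 4.30 and 4.34 in sh-ANP32B, a log2 fold change of 1.35 in the same direction. The part of this overlap in the value of POLD4 was not tested.

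The 3 larger subunits of polymerase delta had negative values that did not pass the test. POLD1, the catalytic subunit, had 164 and 146 TPM in NC against 96.1 and 124.7 in sh-ANP32B (log2 fold change -0.50, limma adjusted p 0.136). POLD2 had a log2 ratio to NC of -0.39 (limma adjusted p 0.178) and POLD3 of -0.66 (limma adjusted p 0.0771). POLD1 and POLD2 were lower in sh-ANP32B replicate 1 than in replicate 2, and POLD3 was the reverse. The share of POLD4 in the summed transcripts of the complex was 15.0% and 13.8% in NC and 30.1% and 26.4% in sh-ANP32B, and the sum itself was 86.4% of the NC mean, the highest of the 10 steps.

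PCNA, the sliding clamp that tethers the polymerases to DNA, was the most abundant of the 44 transcripts in NC and had the lowest p-value. The gene (ENSG00000132646, minus strand of chromosome 20 from 5114953 to 5126626) had 312 and 302 TPM in NC against 162 and 154 in sh-ANP32B. Mean levels were 307 ± 7.08 and 158 ± 5.55 TPM (SD, n = 2 each), or 51.5% of NC. The log2 ratio to NC was -0.95 with SE 0.120 (limma adjusted p 0.0299), and the gap between the groups was far wider than that between replicates. PCNA has annotated pseudogenes with which it can share reads, as do ORC1 and FEN1 among the called genes.

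The clamp loader opens PCNA and places it on the primed end. It consists of RFC1, the large subunit, and of RFC2 to RFC5. Of these 5 genes RFC4 fell, from 126 and 128 TPM in NC to 83.4 and 72.3 TPM in sh-ANP32B (log2 fold change -0.71, SE 0.136, limma adjusted p 0.0482). RFC5 had 60.7 and 69.98 TPM in NC against 39.3 and 38.4 in sh-ANP32B, and at a limma adjusted p of 0.0511 it lay just outside the threshold with the larger log2 fold change of -0.73. RFC2, RFC3 and RFC1 had log2 fold changes of -0.63, -0.51 and -0.47 (limma adjusted p 0.0585, 0.131 and 0.115). All 6 genes of the clamp and its loader had both sh-ANP32B samples below both NC samples, as did 40 of the 44 genes and 21.4% of all genes.

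Replication protein A, which coats single-stranded DNA at the fork and also acts in repair, had no called gene. RPA1, RPA2 and RPA3 had log2 fold changes of -0.56, -0.42 and -0.39 (limma adjusted p 0.0648, 0.131 and 0.252). RPA2 was the most abundant of them, with 172 and 187 TPM in NC against 144 and 124 in sh-ANP32B. In all 3 genes both sh-ANP32B samples were below both NC samples, as in 40 of the 44 genes and 21.4% of all genes. The summed level was 77.1% and 67.95% of the NC mean in the sh-ANP32B replicates.

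Maturation of Okazaki fragments, the short pieces of the lagging strand, had 2 called genes of 4. RNASEH2A, the catalytic subunit of the RNase H2 enzyme that removes RNA from DNA, had 111 and 112 TPM in NC against 47.6 and 62.3 in sh-ANP32B. The gene lies on chromosome 19 (ENSG00000104889, plus strand, 12806584 to 12813640). Mean levels were 112 ± 0.680 and 54.9 ± 10.4 TPM (SD, n = 2 each), giving a log2 fold change of -1.02 with SE 0.165 (limma adjusted p 0.0399). FEN1, the flap endonuclease that trims displaced primers, had 77.4 and 73.7 TPM in NC against 35.2 and 45.3 in sh-ANP32B (log2 fold change -0.90, SE 0.166, limma adjusted p 0.0448). FEN1 shares 49 exon bases with FADS2 on the same strand, which had a log2 fold change of 0.96.

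LIG1, the ligase that seals the fragments, had 96.5 and 91.0 TPM in NC against 53.4 and 64.5 in sh-ANP32B (log2 fold change -0.67, limma adjusted p 0.0626). DNA2, a nuclease and helicase for long flaps, stood at 30.4 and 20.25 TPM in sh-ANP32B and a log2 ratio to NC of -0.80 (limma adjusted p 0.0891). The summed level of the 4 genes was 51.3% and 59.2% of the NC mean. In FEN1, LIG1 and RNASEH2A sh-ANP32B replicate 1 was the lower of the pair, and in DNA2 replicate 2 was.

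**Figure D3:**
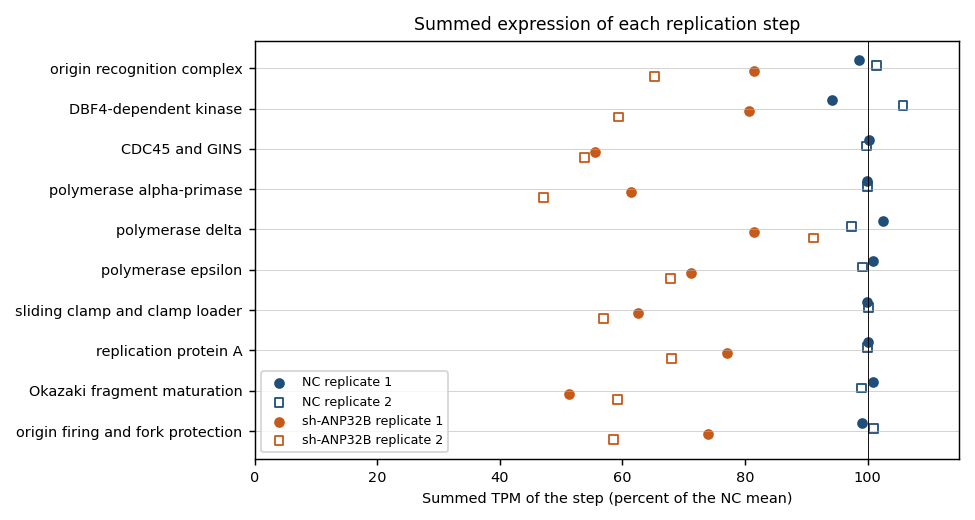
Summed TPM of the genes of each of the 10 steps as a percent of the NC mean, with circles for replicate 1 and squares for replicate 2, NC in blue and sh-ANP32B in orange. Polymerase alpha-primase, CDC45 and GINS, and Okazaki fragment maturation lie lowest in sh-ANP32B, with means of 54.2%, 54.7% and 55.2%, and polymerase delta lies highest with 86.4%.

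By step, the sh-ANP32B mean of the summed TPM ranged from 54.2% to 86.4% of NC. The median log2 fold change was lowest for CDC45 and GINS (-0.86), Okazaki fragment maturation (-0.85) and polymerase alpha-primase (-0.74), and nearest to 0 for ORC and replication protein A (-0.42 each). No test of the difference between steps was run, and the sh-ANP32B samples differed most for the DBF4-dependent kinase, at 80.7% and 59.3%. In 7 of the 10 steps at least 1 gene fell, and the DBF4-dependent kinase, polymerase delta and replication protein A had none. After GC correction these steps held genes called lower too, namely CDC7, POLD1, POLD2, POLD3, RPA1 and RPA2. Their limma adjusted p was then 0.0181, 0.00784, 0.0113, 0.0135, 0.0134 and 0.0359. In that fit 1024 of all 15427 genes were called lower. Of the 44 genes, 9 were called lower in each of 10 alternative settings that kept all 4 samples and the abundance trend, namely ORC1, CDC45, GINS1, PRIM1, POLE, PCNA, FEN1, RNASEH2A and CLSPN. How many of all genes were called in each of these settings was not computed. The other filters and the replicate block leave the log2 fold change as it was, so the agreement was partly built in.

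By an unadjusted limma p under 0.05 with a log2 fold change beyond 0.5 in either direction, 29 of the 44 genes were lower and 1 was higher, against 6.55% and 12.1% of all genes. The 29 held all genes of CDC45 and GINS, of polymerase alpha-primase and of Okazaki fragment maturation.

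Rank correlations of the fold change with transcript properties were weak. Across the 44 genes, the Spearman rho of the log2 fold change was -0.0414 with the NC level, 0.0912 with the length of the longest transcript and -0.151 with its GC content. These are descriptions over genes that share the same 4 libraries. The replication genes were abundant, with a median NC level of 56.9 TPM against 14.3 TPM for all genes tested, and 42 of them lay above that general median.

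The gap between the sh-ANP32B replicates did follow GC content. Over the 44 genes, the difference of replicate 2 from replicate 1 had a Spearman rho of 0.715 with GC content, and over all 15427 tested genes with a GC value rho was 0.577. For the NC replicates rho over all these genes was -0.206. In 19 of the 21 genes under 45% GC sh-ANP32B replicate 2 was the lower of the pair, by a median of -0.40 on the log2 scale, and in 13 of the 23 other genes it was, with a median of -0.0358. Together these are 32 of the 44, against 52.4% of all genes. The median log2 fold changes of sh-ANP32B against NC were -0.63 under 45% GC and -0.67 in the other class. Genes called lower numbered 3 of 21 and 8 of 23. The part of GC content in the replicate gap was not tested beyond the fits corrected for it, in which the median over the 44 genes was -0.60.

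**Figure D4:**
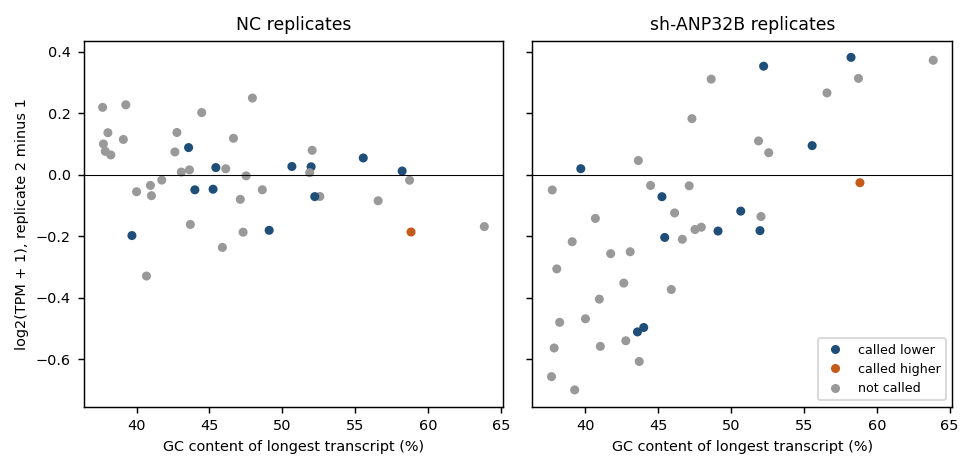
Difference between replicates (replicate 2 minus replicate 1, log2(TPM + 1)) of the 44 genes against the GC content of the longest transcript, for NC on the left and sh-ANP32B on the right, with blue for genes called lower, orange for called higher and grey for the rest. The sh-ANP32B differences rise with GC content (rho 0.715) and lie mostly below 0 under 45% GC.

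The start regions of the genes were read for sequence features that the choice of genes had not used. RefSeq windows of 300 bases (GRCh38.p14, 250 before to 50 after the start) were found for 39 of the 44 genes, in 51 windows, and not for RPA2, RPA3, GINS4, POLD3 and DNA2. An E2F core, meaning the letters TTCCCGC or the variants with the letters TTGGCGC and with the letters TTCGCGC on either strand, was present in 27 of the 51 windows, or 52.9%, against 11.0% of all 35116 windows. The CCAAT box, CCAAT on either strand, was in 51.0% against 34.6%, and the E-box CACGTG in 9.80% against 7.26%. The cell cycle homology region TTTGAA, found at genes of G2 and mitosis, was in 3.92% against 15.2%. The 35116 windows belong to 27305 genes, more than were tested here, and were not matched to the replication genes for expression or base composition. Whether these differences in share are particular to replication genes was therefore not tested. Cores can overlap each other and a CCAAT box. A match describes letters in a window and is no evidence of a bound factor.

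Most E2F core matches in these genes lay near the start site. Of 34 matches in the first window of each gene, 25 began within 50 bases of the start, in 20 genes. Overlapping matches were counted separately. The share of matches near the start was not computed over all windows, so it cannot be called particular to these genes. By gene, 8 of the 11 called lower and 18 of the 27 without a call that have a window held a core in at least 1 window, and POLD4 held none. The 4 windows printed here belong to the 3 called genes with the lowest fold changes and to POLD4, the gene that rose, each 5′ to 3′ on the gene's strand, with E2F cores and CCAAT boxes in capitals. CLSPN is read from chr1:35769929-35770228 (minus strand), PRIM1 from chr12:56752274-56752573 (minus), RNASEH2A from chr19:12806334-12806633 (plus) and POLD4 from chr11:67353547-67353846 (minus).
CLSPN: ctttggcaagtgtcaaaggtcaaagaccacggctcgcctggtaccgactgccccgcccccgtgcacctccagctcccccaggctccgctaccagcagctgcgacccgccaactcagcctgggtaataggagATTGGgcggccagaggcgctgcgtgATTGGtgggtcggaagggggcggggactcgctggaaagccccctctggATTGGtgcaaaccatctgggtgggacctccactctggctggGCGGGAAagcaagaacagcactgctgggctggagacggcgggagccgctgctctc
PRIM1: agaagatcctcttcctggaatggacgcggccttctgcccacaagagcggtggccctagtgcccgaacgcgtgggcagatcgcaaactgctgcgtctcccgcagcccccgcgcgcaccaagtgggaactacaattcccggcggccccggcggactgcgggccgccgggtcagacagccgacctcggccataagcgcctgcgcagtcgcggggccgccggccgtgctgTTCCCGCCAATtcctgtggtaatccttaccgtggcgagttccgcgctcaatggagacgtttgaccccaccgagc
RNASEH2A: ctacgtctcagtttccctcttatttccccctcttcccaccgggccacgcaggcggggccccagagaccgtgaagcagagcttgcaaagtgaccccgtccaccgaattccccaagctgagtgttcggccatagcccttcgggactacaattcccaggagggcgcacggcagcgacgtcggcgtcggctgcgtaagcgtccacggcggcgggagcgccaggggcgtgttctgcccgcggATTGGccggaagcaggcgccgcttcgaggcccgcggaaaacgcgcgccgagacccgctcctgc
POLD4: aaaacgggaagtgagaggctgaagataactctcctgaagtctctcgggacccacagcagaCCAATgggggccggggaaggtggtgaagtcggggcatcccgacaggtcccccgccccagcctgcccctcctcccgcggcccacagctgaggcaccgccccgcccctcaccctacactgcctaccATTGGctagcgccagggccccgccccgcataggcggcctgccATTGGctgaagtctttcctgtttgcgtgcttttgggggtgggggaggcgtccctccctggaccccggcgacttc

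In the CLSPN window 3 CCAAT boxes, all on the opposite strand, precede an E2F core that begins 5 bases before the start site. In PRIM1 the core begins 24 bases before the start and its last base is the first base of a CCAAT box. The windows of RNASEH2A and POLD4 hold 1 and 3 CCAAT boxes and no E2F core, although RNASEH2A fell and POLD4 rose. The called genes CDC45 and FEN1 also lacked a core.

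**Figure D5:**
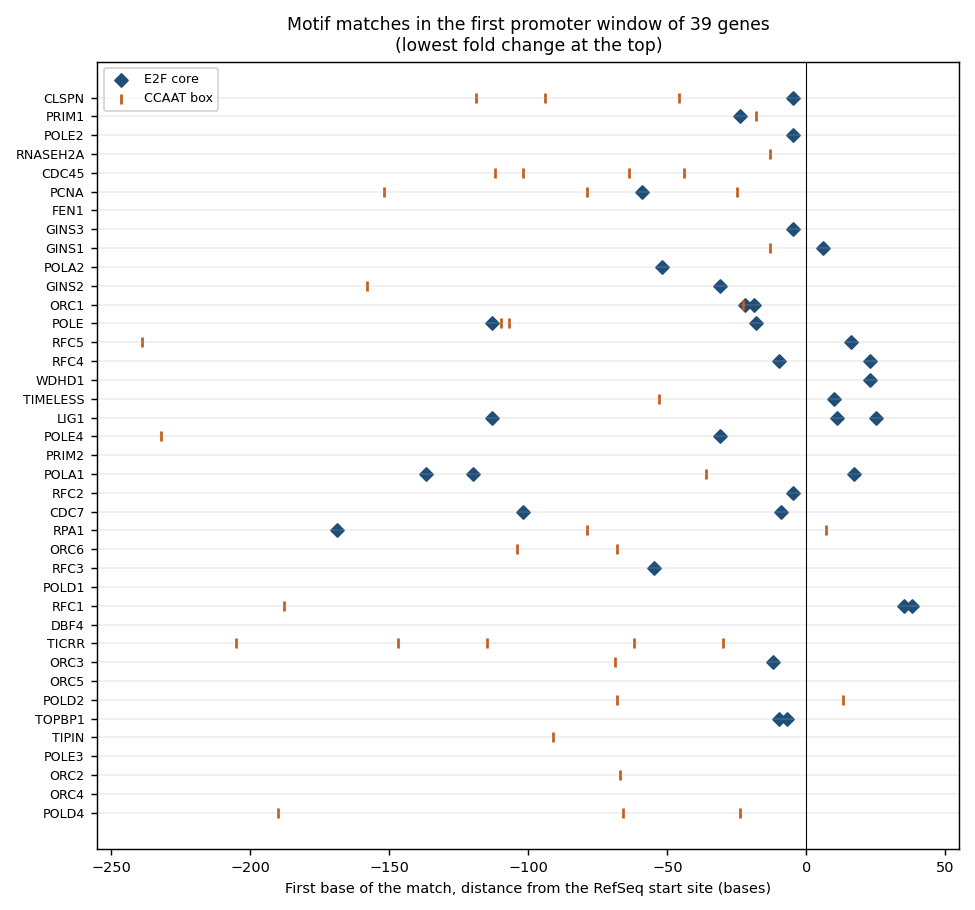
Position of E2F cores (diamonds) and CCAAT boxes (bars) relative to the start site, in bases, in the first window of 39 replication genes ordered by log2 fold change with the lowest at the top. Diamonds gather near the start site, where 25 of 34 begin within 50 bases, and occur at genes from CLSPN down to TOPBP1 in the order.

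Beyond the 44 genes, 19 further partners of the replisome and the origin were listed. Of these 2 (10.5%) fell, 0 rose and 17 did not pass the test, whereas among all genes tested 1.18% fell and 2.14% rose. The median log2 fold change of the 19 was -0.39, against 0.0827 for all genes tested. PCLAF, a small protein that binds PCNA, had 152 and 152 TPM in NC against 84.4 and 59.9 in sh-ANP32B (log2 fold change -1.085, SE 0.182, limma adjusted p 0.0425). DSCC1, a subunit of an alternative clamp loader, had 38.4 and 39.7 TPM in NC against 21.65 and 17.1 in sh-ANP32B (log2 fold change -0.98, SE 0.174, limma adjusted p 0.0440). CHTF18 and CHTF8, the partners of DSCC1 in that loader, had log2 fold changes of -0.25 and 0.05 and overlapping groups. Like these, the other subunits of RNase H2 and the topoisomerases were picked for mention after their values were seen. Of the RNase H2 subunits, RNASEH2B had a log2 ratio to NC of -0.50 (limma adjusted p 0.0926) and RNASEH2C of 0.17 (limma adjusted p 0.504), beside the -1.02 of RNASEH2A. The topoisomerases TOP2A, TOP2B and TOP1 had values of -0.65, -0.45 and -0.31 (limma adjusted p 0.0905, 0.232 and 0.268).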

How the data were processed

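RNA-seq of 2 NC and 2 sh-ANP32B samples of Kasumi-1 was used. RNA was extracted with Trizol and libraries were made with a TruSeq kit. Per the submitters' processing notes, reads were aligned to hg38 with HISAT2 2.0.5, and the authors deposited the values as TPM in a table of the 4 samples. The program and annotation behind the TPM, and the use of strand, are not given in the sources used here. TPM keeps no depth, so the depth is unknown and no counting interval is given.

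A minimum of 1 TPM in 2 or more samples left 16817 of 18567 genes, which were tested on log2(TPM + 1) with limma 3.58.1 (R 4.3.3, empirical Bayes with an abundance trend, two-sided, Benjamini-Hochberg over all genes tested). The added 1 makes fold changes of weakly expressed genes, on this log2(TPM + 1) scale, too small. A gene was called at an adjusted p under 0.05. GENCODE release 44 gave positions, overlaps and GC content, and matched 16986 of the gene IDs. Promoter windows came from RefSeq (GRCh38.p14).

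All 44 genes are named. A lymphoid marker on the marker list is not reported here. Of the other lists, genes passing the test are named, and those named without passing were picked after their values were seen. Genes, lists and tests were chosen with earlier results of these data known. On data simulated for sh-ANP32B against NC (16817 genes, 200 changed, 10 runs), 36.2% of 2-fold and 85.7% of 4-fold changes were recovered and 4.66% of calls were false. The simulated noise was independent between genes and samples and lacked the gap between sh-ANP32B replicates that follows GC content. Its variance differed less from gene to gene than limma estimated in the data. In the data 3995 genes had an unadjusted limma p under 0.05, many more than the 200 changed in a simulated run. These shares therefore need not hold for the calls reported here. Alternatives were other scalings, filters and pseudocount, GC correction, no trend, a replicate block and leaving out each replicate.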

Additional observations from a re-analysis of the deposited data

How the results depend on the processing

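The direction of the replication genes held more firmly than the calls, although part of the settings could not change it. The other filters, the fit without the trend and the replicate block leave each log2 fold change as it was, so they bear on the calls alone. In all, 41 of the 44 genes kept a negative log2 fold change in each of 15 alternative settings, and of 660 values for single genes 511 kept their direction and side of the threshold, 109 gained a call, 39 lost one and 1 reversed, which was ORC2, at 0.15 without sh-ANP32B replicate 2 and -0.32 without sh-ANP32B replicate 1. The median over the 44 genes lay between -0.73 and -0.60 with all 4 samples and between -0.69 and -0.53 when 1 replicate was left out, the last without sh-ANP32B replicate 2.

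Over all genes 559 were called, 199 lower and 360 higher, against 284 and 236 after median-of-ratios, 227 and 241 after upper-quartile and 234 and 244 after quantile scaling. In these 3 settings 0 of the 44 genes were called higher. GC correction gave 2778 calls over all genes, 1024 lower and 1754 higher, with 33 of the 44 lower and 2 higher. Without the abundance trend limma called 0 genes (3701 at an unadjusted p under 0.05), hence 0 lower and 0 higher of the 44. The unadjusted criterion with a log2 fold change beyond 0.5 gave 3130 calls, 1101 of them lower, and 29 of the 44 lower. Leaving out each replicate gave 273 to 4079 calls over all genes, 1 to 37 of the 44 lower and 0 to 1 higher. A lone sample was then assumed to vary like the other group, so the spread came from the remaining pair.

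With the replicate number as a block 1473 genes were called, 491 of them lower, and 19 of the 44 were lower. With the block and GC correction 2351 genes were called, 870 of them lower, and 32 of the 44 were lower. The deviations of same-numbered samples had a Pearson r of -0.0925, which gave no sign of pairing by number, and whether same-numbered samples shared a batch or infection is not given in the sources used here. TPM keeps no depth, so its limit on low genes could not be given.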

Other observations

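A list made up mostly of translesion and repair polymerases, which copy damaged DNA or fill repair gaps, was set beside the 44 genes. It also held the mitochondrial polymerase genes POLG and POLG2, and MAD2L2, which is not itself a polymerase. Their NC means were 50.6, 58.4 and 139 TPM, within a summed NC mean of 526 TPM for the list. Of 14 tested, limma called 0, with 6 at an unadjusted p under 0.05 against 3995 of all 16817 genes tested, and their median log2 fold change was 0.26. The genes given here were picked after their values were seen. POLB, the polymerase of base excision repair, had 33.8 and 38.2 TPM in NC against 69.9 and 52.2 in sh-ANP32B (log2 fold change 0.73, limma adjusted p 0.0779). POLG2, a mitochondrial polymerase subunit, had 54.3 and 62.55 TPM in NC against 82.4 and 81.7 in sh-ANP32B (log2 fold change 0.49, limma adjusted p 0.104). POLQ, the polymerase of theta-mediated end joining, had the lowest value, with 26.5 and 29.7 TPM in NC against 17.4 and 13.1 in sh-ANP32B (log2 fold change -0.85, limma adjusted p 0.0658). The summed TPM of the 14 genes was 111% and 109% of the NC mean in the sh-ANP32B replicates, whereas that of the 44 replication genes was 69.35% and 64.8%. The difference between the lists was not tested.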
